A study of Gallus gallus with 32 samples.

Results

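In all, 7 transcripts of the amino acid response that runs through the transcription factor ATF4 are described in broiler liver: ATF4 itself, ASNS, PSAT1, PHGDH, CTH, DDIT4 and VLDLR. They were taken by name as 7 of the 25619 genes of a table of liver TPM, in every library of every diet. No threshold on their values was used. The livers came from Arbor Acres broilers, a commercial meat chicken, fed added arginine at 4 levels. The labels call the groups Control (0 g/kg), Arg (1.8 g/kg), 5X Arg (9 g/kg) and 10X Arg (18 g/kg), with 8 libraries in each and 32 in all. The labels give no age or sex, and nothing in them says that the 8 libraries of a diet are separate birds, so p-values here cover library-to-library spread, which may be technical. Where livers are counted or ranked below, libraries are meant. The title also names pectoral muscle and the design text counts more liver samples than the 32 libraries used here. Samples beyond these 32 libraries were not analysed here.

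When an amino acid runs short, uncharged transfer RNAs activate the kinase GCN2, which phosphorylates the initiation factor eIF2alpha. General translation then slows while translation of ATF4 increases, and ATF4 pairs with C/EBP proteins on response elements of its target genes. The targets known from mammals include amino acid transporters, aminoacyl-tRNA synthetases, asparagine synthetase and the enzymes that make serine from glycolytic intermediates. ATF4 is controlled largely at translation, so its transcript level is not its activity. Birds excrete nitrogen as uric acid, and chickens lack a working urea cycle, which makes arginine a dietary essential for them. The comparison across doses asks whether extra arginine in the diet moved transcripts of this pathway.

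The libraries carried the markers of liver. The summed level of 20 hepatocyte markers, such as albumin, was 111000 to 207000 TPM per library, and that of 11 skeletal muscle markers was 0.48 to 26.2 TPM. Between 10353 and 11678 genes reached 1 TPM in a library. Control replicate 7 stood slightly apart, with a median correlation of 0.916 with the other libraries, against 0.933 to 0.953 for the other 31. Read depth is unknown because only TPM are given, so no counting interval or detection limit is attached to any value. In bulk liver, fewer cells of a type and less RNA per cell cannot be told apart.

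No member of the set passed the test at any dose. Between 3.37 and 14.1% of a member's spread lay between diets, with a mean of 9.68% expected without a dose effect. The median over all tested genes was 6.22%. Levels spanned a wide range. PHGDH, PSAT1 and ATF4 averaged 579, 531 and 488 TPM over the 32 libraries and ranked 219, 242 and 265 among the 25619 genes. CTH averaged 185 TPM and ranked 537. ASNS averaged 26.0 TPM (rank 2550), DDIT4 13.7 TPM (rank 3999) and VLDLR 1.56 TPM (rank 10465). All 7 passed the filter of a mean of at least 1 TPM that left 11339 genes for testing. TPM are scaled per transcript length, so these levels can be set side by side.

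**Figure D1:**
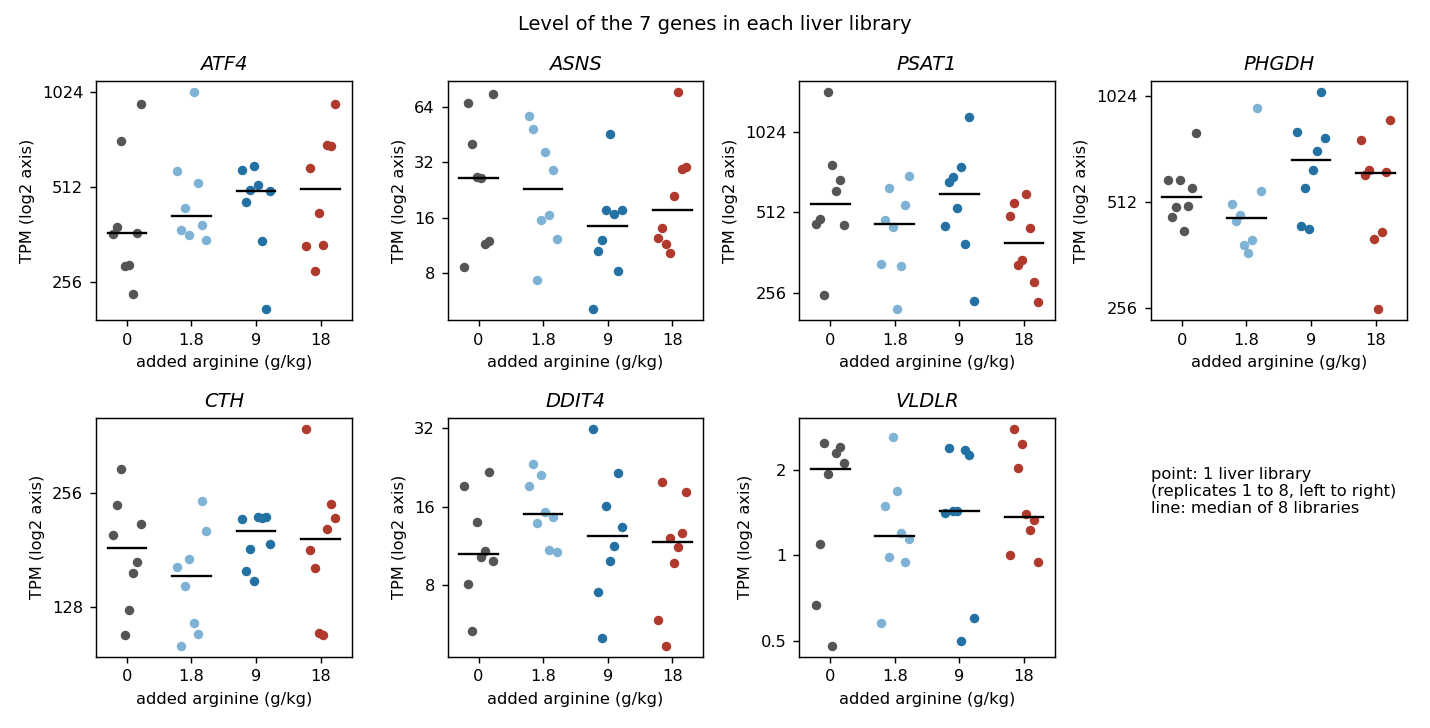
Level of each gene in each of the 32 liver libraries, in TPM on a log2 axis, by added arginine in g/kg; each point is 1 library and each line the median of the 8 libraries of a diet. The diets overlap for every gene, and the points of ASNS spread from 5.05 to 77.8 TPM.

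ATF4, the transcription factor at the head of the response, had a mean of 448 ± 247 TPM in control livers and of 506 ± 226, 464 ± 129 and 536 ± 230 TPM at 1.8, 9 and 18 g/kg (SD, n = 8 each). Its lowest, median and highest libraries were 235, 366 and 940 TPM in control livers and 349, 416 and 1026 TPM at 1.8 g/kg. They were 210, 499 and 598 TPM at 9 g/kg and 278, 507 and 937 TPM at 18 g/kg. All 4 ranges overlapped, and the mean at each dose lay above that of control livers by less than 1 SD. The log2 differences from control, on log2(TPM + 1), were 0.24 ± 0.28, 0.14 ± 0.28 and 0.30 ± 0.28 (SE) at 1.8, 9 and 18 g/kg, with limma unadjusted p-values of 0.401, 0.610 and 0.297. Without replicate 5 of 1.8 g/kg, the highest library, the difference at 1.8 g/kg was 0.08. At 18 g/kg the fold was 1.23, with a 95% interval of 0.827 to 1.83.

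ASNS, which makes asparagine from aspartate and glutamine, was the most variable of the 7. Its mean was 33.6 ± 26.0 TPM in control livers and 28.0 ± 18.2, 16.7 ± 12.6 and 25.8 ± 22.4 TPM at 1.8, 9 and 18 g/kg (SD, n = 8 each). The lowest, median and highest libraries were 8.59, 26.4 and 76.2 TPM in control livers, 7.27, 22.9 and 57.2 TPM at 1.8 g/kg, 5.05, 14.5 and 45.8 TPM at 9 g/kg, and 10.3, 17.5 and 77.8 TPM at 18 g/kg. Each diet held livers with low ASNS, and the highest library of all was 15.4 times the lowest. At 9 g/kg only replicate 5, at 45.8 TPM, was above 17.6 TPM. The gene's within-diet SD of 0.99 on the log2 scale lay at percentile 96.3 of the tested genes, whose median SD was 0.33.

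At 9 g/kg ASNS averaged 16.7 TPM, against 33.6 TPM in control livers, the widest difference of the set. The log2 difference was -0.84 ± 0.47 (95% interval -1.80 to 0.12), and 7 of the 8 livers at 9 g/kg lay below the control mean. It did not pass the test, with a limma adjusted p of 0.956 (0.738 to 0.991 over the alternatives that keep every library), an unadjusted p of 0.0832 and an exact permutation p of 0.12. With 1 library left out the difference ran from -1.08 (without replicate 5 of 9 g/kg, unadjusted limma p 0.0277) to -0.62 (without control replicate 8, unadjusted p 0.195). The lowest adjusted limma p was 0.618, without control replicate 7 (-0.99, unadjusted p 0.049), and with the W-linked gene HINTW as covariate the difference was -0.62 (unadjusted p 0.162). At 1.8 and 18 g/kg the differences were -0.16 ± 0.47 and -0.31 ± 0.47, and with HINTW as covariate -0.05 and -0.18. The labels give no sex, and the part of sex in the ASNS level was not tested.

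PSAT1 and PHGDH are enzymes of serine synthesis. PHGDH catalyses the first step, from 3-phosphoglycerate, and PSAT1 the transamination that follows. PSAT1 averaged 644 ± 358 TPM in control livers and 460 ± 162, 612 ± 280 and 410 ± 133 TPM at 1.8, 9 and 18 g/kg (SD, n = 8 each). Its lowest, median and highest libraries were 251, 549 and 1440 TPM in control livers, 223, 465 and 697 TPM at 1.8 g/kg, 239, 600 and 1158 TPM at 9 g/kg, and 237, 394 and 597 TPM at 18 g/kg. The lowest livers of the 4 diets were alike, and the highest ones were in control and at 9 g/kg. At 18 g/kg PSAT1 averaged 410 TPM, against 644 TPM in control livers, a log2 difference of -0.55 ± 0.30 (95% interval -1.16 to 0.05), with 7 of 8 livers below the control mean. The limma unadjusted p was 0.0708 (adjusted p 1.0, and at least 0.998 under every alternative run) and the exact permutation p was 0.092. Without control replicate 3, the lowest control liver, the difference was -0.72 with an unadjusted limma p of 0.0174, and without control replicate 4, the highest, it was -0.36 with an unadjusted p of 0.206 (adjusted p 1.0 in both). The differences at 1.8 and 9 g/kg were -0.41 ± 0.30 and -0.05 ± 0.30, so the means did not follow the order of dose.

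PHGDH averaged 554 ± 117 TPM in control livers and 511 ± 188, 678 ± 209 and 574 ± 204 TPM at 1.8, 9 and 18 g/kg (SD, n = 8 each). Its lowest, median and highest libraries were 424, 531 and 803 TPM in control livers, 368, 462 and 950 TPM at 1.8 g/kg, 428, 675 and 1054 TPM at 9 g/kg, and 254, 618 and 877 TPM at 18 g/kg. The groups overlapped throughout, and its within-diet SD on the log2 scale ran from 0.28 in control livers to 0.58 at 18 g/kg. The log2 differences from control were -0.16, 0.26 and -0.02 (SE 0.22 each), and the highest of the 3 adjusted limma p-values was 1.0 and the lowest 0.963. Without replicate 7 of 1.8 g/kg, the highest library of that diet, the difference at 1.8 g/kg was -0.295.

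CTH, the transsulfuration enzyme that releases cysteine from cystathionine, averaged 188 ± 61.5 TPM in control livers and 157 ± 49.5, 195 ± 29.7 and 201 ± 86.8 TPM at 1.8, 9 and 18 g/kg (SD, n = 8 each). The lowest, median and highest libraries were 108, 184 and 296 TPM in control livers, 100.9, 154 and 244 TPM at 1.8 g/kg, 150, 203 and 222 TPM at 9 g/kg, and 108, 193 and 379 TPM at 18 g/kg. The 9 g/kg livers lay closest together and the 18 g/kg livers furthest apart, and all groups overlapped. The log2 differences from control were -0.26, 0.11 and 0.05 (SE 0.22 each), with unadjusted limma p-values of 0.256, 0.637 and 0.816.

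DDIT4, a stress-induced inhibitor of mTORC1, averaged 12.4 ± 5.55 TPM in control livers and 16.1 ± 4.66, 14.6 ± 8.63 and 11.8 ± 5.31 TPM at 1.8, 9 and 18 g/kg (SD, n = 8 each). The lowest, median and highest libraries were 5.34, 10.5 and 21.7 TPM in control livers, 10.7, 14.9 and 23.3 TPM at 1.8 g/kg, 5.04, 12.3 and 31.8 TPM at 9 g/kg, and 4.68, 11.7 and 19.9 TPM at 18 g/kg. The lowest liver at 1.8 g/kg was above the median control liver, while the other doses reached as low as control. The log2 difference at 1.8 g/kg was 0.41 ± 0.30, with 6 of 8 livers above the control mean, an unadjusted limma p of 0.174 and an adjusted p of 1.0. At 9 and 18 g/kg the differences were 0.14 ± 0.30 and -0.08 ± 0.30.

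VLDLR, a receptor for triglyceride-rich lipoproteins that the hen uses in the ovary to load yolk and that ATF4 induces in mouse liver under endoplasmic reticulum stress, was near the filter. It averaged 1.69 ± 0.81 TPM in control livers and 1.33 ± 0.62, 1.55 ± 0.75 and 1.65 ± 0.70 TPM at 1.8, 9 and 18 g/kg (SD, n = 8 each). The lowest, median and highest libraries were 0.48, 2.02 and 2.50 TPM in control livers, 0.58, 1.17 and 2.61 TPM at 1.8 g/kg, 0.50, 1.44 and 2.39 TPM at 9 g/kg, and 0.95, 1.37 and 2.80 TPM at 18 g/kg. Every diet held at least 1 liver above 2 TPM and at least 1 liver below 1 TPM. The log2 differences from control were -0.18, -0.07 and 0.01 (SE 0.21 each). At this level the added 1 TPM of the log scale understates a fold change.

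Across the 3 doses none of the 21 member differences passed, and none of the 11339 tested genes did either (0% called at an adjusted p below 0.05 in each comparison, in the test for any difference among the 4 doses and in the test for a linear trend). At an unadjusted p below 0.05 there were again 0 of 21 member differences, against 2.34, 4.87 and 2.44% of all tested genes at 1.8, 9 and 18 g/kg. The test for any difference gave 0 of 7 members at that level, against 3.18% of all tested genes, and the trend test 0 of 7, against 2.03%. The lowest adjusted limma p of any gene was 0.206, at 9 g/kg. The comparisons share the 8 control livers. Slopes per 10 g/kg of added arginine lay between -0.20 ± 0.24 for ASNS and 0.11 ± 0.14 for ATF4 on the log2 scale, with adjusted p-values of 1.0 for all 7. The share of a member's total spread that lay between diets was 4.04% for ATF4, 10.4% for ASNS, 14.1% for PSAT1, 11.2% for PHGDH, 9.53% for CTH, 9.39% for DDIT4 and 3.37% for VLDLR. With no dose effect a mean share of 9.68% would be expected from the degrees of freedom. The median over all tested genes was 6.22%, and a median is not directly comparable with that mean. The intervals bound what these libraries can show. For ATF4 the 95% intervals ran from a fold of 0.743 to 1.83 over the 3 doses, and for ASNS from 0.287 to 1.74.

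**Figure D2:**
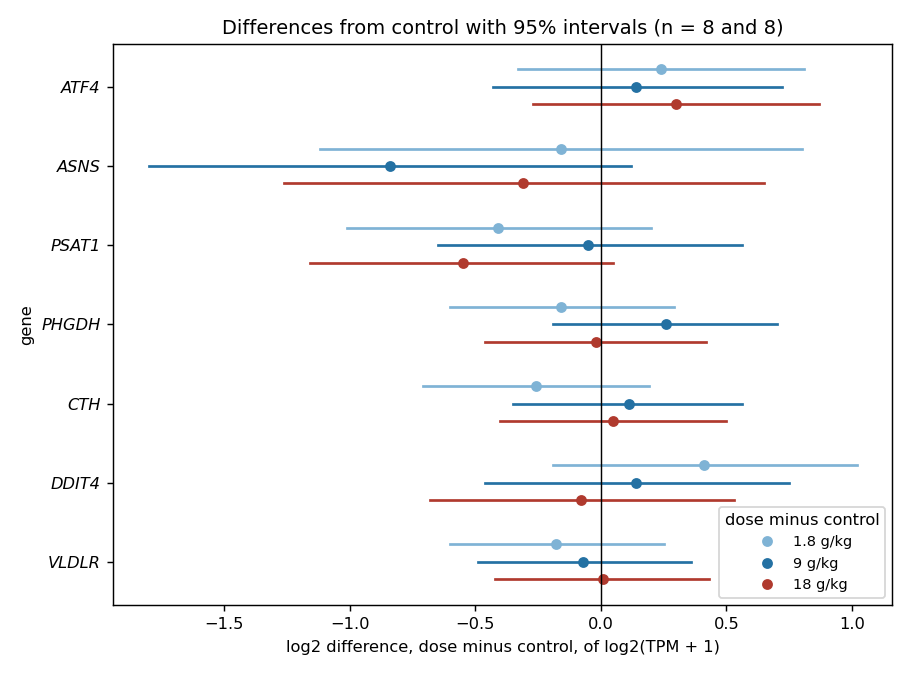
Difference of each dose from control for the 7 genes, in log2(TPM + 1), dose minus control, with 95% intervals (8 and 8 libraries). Every interval crosses 0, and the widest are those of ASNS, from -1.80 to 0.12 at 9 g/kg.

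Among the other genes of the pathway none passed either. Of 26 tested ATF4 targets and amino acid response genes beyond the 7, 13 were higher and 13 lower at 1.8 g/kg, 13 and 13 at 9 g/kg, and 8 and 18 at 18 g/kg, with median log2 differences of -0.02, -0.01 and -0.05, against 0.03, 0.00 and 0.02 over all tested genes. Of all tested genes 59, 50.6 and 55.6% were higher than control at the 3 doses, which is the background for the counts of this and the following lists. The smallest unadjusted p-values in the list were those of CCNG2, an unconventional cyclin, which was 8.89 ± 3.95 TPM at 9 g/kg, against 14.9 ± 7.19 TPM in control livers (log2 difference -0.67 ± 0.25, adjusted limma p 0.906), and of SLC7A5, the large neutral amino acid transporter, which was 5.48 ± 1.52 TPM at 18 g/kg, against 3.75 ± 1.34 TPM in control livers (0.46 ± 0.20, adjusted p 1.0). PYCR1, which completes proline synthesis, was 16.3 ± 15.1 TPM at 9 g/kg, against 27.9 ± 14.6 TPM in control livers (-0.88 ± 0.47), and GPT2, an alanine aminotransferase, 35.2 ± 31.5 TPM at 1.8 g/kg, against 58.1 ± 31.4 TPM in control livers (-0.96 ± 0.49). Neither passed the test.

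Genes upstream of ATF4 did not pass. Among 16 genes of the eIF2alpha kinases, eIF2 and eIF2B subunits and their brakes, 12, 10 and 9 were higher than control at 1.8, 9 and 18 g/kg, and the 9 of 16 at 18 g/kg are close to the 55.6% of all tested genes. When TPM were rescaled by median ratios, 9 of the 16 were lower at 18 g/kg. IMPACT, a brake on GCN2, had the smallest p, with 9.86 ± 4.26 TPM at 9 g/kg, against 13.1 ± 3.92 TPM in control livers (-0.41 ± 0.19, adjusted limma p 0.956). Of 19 cytosolic aminoacyl-tRNA synthetases, which charge transfer RNAs, 13 were lower at 1.8 g/kg, 15 at 9 g/kg and 9 at 18 g/kg (11 when rescaled), with medians of -0.07, -0.09 and 0.02. Of 18 genes of the unfolded protein response, a neighbouring stress pathway that also feeds ATF4, 10 and 11 were higher at 1.8 and 9 g/kg (9 and 11 when rescaled) and 15 were lower at 18 g/kg, with medians of 0.03, 0.06 and -0.13, and none passed. HSPA5, its main chaperone, was 713 ± 329 TPM at 9 g/kg, against 552 ± 780 TPM in control livers (1.23 ± 0.56, adjusted limma p 0.956), and its SD in control livers exceeded its mean.

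Of 19 tested enzymes of serine, glycine and transsulfuration metabolism beyond the members, 7, 11 and 11 were higher at 1.8, 9 and 18 g/kg (9 at 18 g/kg when rescaled). SHMT1, which interconverts serine and glycine, had the smallest unadjusted p of the listed genes at 0.00352, with 227 ± 50.9 TPM at 1.8 g/kg, against 324 ± 56.6 TPM in control livers (-0.53 ± 0.17, adjusted limma p 1.0). MAT1A, which makes S-adenosylmethionine, was 703 ± 161 TPM at 18 g/kg, against 953 ± 230 TPM in control livers (-0.44 ± 0.20, adjusted p 1.0). GCLC, the first enzyme of glutathione synthesis, was 78.6 ± 32.7 TPM at 9 g/kg, against 48.1 ± 24.5 TPM in control livers (0.74 ± 0.32, adjusted p 0.954). Among 20 genes of mTORC1 and arginine sensing, the pathway that DDIT4 inhibits, 12, 11 and 11 were higher and the smallest p was that of DEPTOR, at 40.5 ± 4.87 TPM at 9 g/kg, against 34.3 ± 6.10 TPM in control livers (0.24 ± 0.12, adjusted limma p 0.956). Of 14 glucocorticoid and fasting genes, 6 were lower at 1.8 g/kg, 12 at 9 g/kg and 11 at 18 g/kg, with medians of 0.09, -0.20 and -0.27, and none passed. G6PC, which releases glucose, was 336 ± 233 TPM at 9 g/kg, against 710 ± 435 TPM in control livers (-1.02 ± 0.42, adjusted limma p 0.906), and TAT, tyrosine aminotransferase, was 482 ± 170 TPM, against 844 ± 382 TPM in control livers (-0.69 ± 0.32, adjusted p 0.956). Of 12 tested lipoprotein receptor genes beside VLDLR, 7, 4 and 8 were higher at 1.8, 9 and 18 g/kg (5, 4 and 7 when rescaled), and none passed.

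Markers of some liver cell types lay mostly to one side of control alongside these lists, and those of others did not. None of the marker genes passed the test. Of 13 tested stellate cell and fibroblast markers, 4, 5 and 8 were higher at 1.8, 9 and 18 g/kg, and 9, 8 and 5 lower. All 15 tested endothelial markers were higher at each of the 3 doses, with median log2 differences of 0.39, 0.38 and 0.24 at 1.8, 9 and 18 g/kg. The summed level of all 16 endothelial markers, tested or not, was 52.6 to 224 TPM in control livers and 136 to 240, 149 to 243 and 157 to 194 TPM at 1.8, 9 and 18 g/kg. All 12 macrophage and Kupffer cell markers were higher at each dose (11 of 12 at 1.8 g/kg when rescaled), with medians of 0.25, 0.37 and 0.50. Of 11 tested T and NK cell markers, 10, 10 and 9 were higher at 1.8, 9 and 18 g/kg. All 5 tested B and plasma cell markers were higher at each dose. Of 10 tested heterophil markers, 9, 10 and 7 were higher (6 at 18 g/kg when rescaled). Of 6 tested erythrocyte markers 5, 5 and 3 were higher (2 at 18 g/kg when rescaled), and of 6 tested cholangiocyte markers 2, 2 and 5 (4 at 18 g/kg when rescaled). Of 18 tested hepatocyte markers, which include TAT, 14 were lower at each dose (15 at 18 g/kg when rescaled), with medians of -0.05, -0.08 and -0.09. The summed level of all 20 hepatocyte markers, tested or not, was 132000 to 207000 TPM in control livers and 129000 to 176000, 125000 to 192000 and 111000 to 187000 TPM at 1.8, 9 and 18 g/kg. The summed levels of every one of these marker lists overlapped between diets, and their part in the list differences was not tested.

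The members did not vary together as 1 block between livers. Across the 32 libraries, 2 of the 21 pairs of members passed a permutation test of Pearson's r on log2(TPM + 1), adjusted over the 21 pairs (9.52%). All pairs share the same libraries and the closed sum of TPM.

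**Figure D3:**
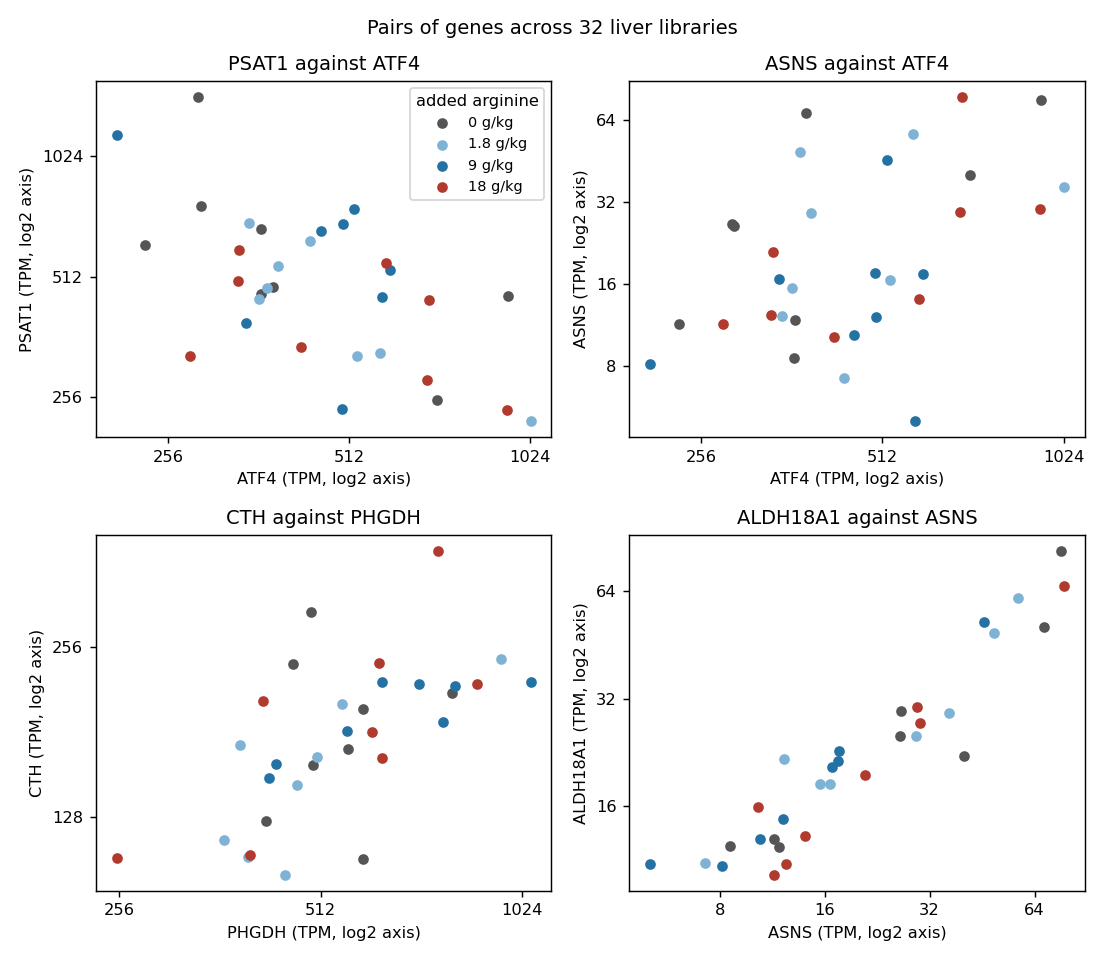
PSAT1 against ATF4, ASNS against ATF4, CTH against PHGDH and ALDH18A1 against ASNS, in TPM on log2 axes; each point is 1 of 32 libraries, coloured by added arginine. PSAT1 lies lower where ATF4 is higher (r = -0.61), CTH is higher where PHGDH is higher (0.64), and ALDH18A1 lies close to a line with ASNS (0.94).

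PHGDH and CTH were high in the same livers, with r = 0.64 (rho = 0.65, permutation p adjusted over the 21 pairs 0.00084 and 0.00168). Within diets r was 0.08 in control livers and 0.76, 0.84 and 0.76 at 1.8, 9 and 18 g/kg, and the difference between diets was not tested. It was 0.60 without the 2 libraries farthest from the median of PHGDH. ATF4 was high where PSAT1 was low, with r = -0.61 (rho = -0.53, adjusted permutation p 0.0021 and 0.018), and within diets -0.65 in control livers and -0.88, -0.47 and -0.44 at 1.8, 9 and 18 g/kg. Without the 2 libraries farthest from the ATF4 median r was -0.59. The liver with the highest ATF4, at 1026 TPM, was also the liver with the lowest PSAT1, at 223 TPM.

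ATF4 and ASNS had r = 0.45 (rho = 0.45) with an adjusted permutation p of 0.0696, which did not pass, and 0.63, 0.36, 0.22 and 0.66 within control and the 1.8, 9 and 18 g/kg diets. It passed on rescaled TPM (0.48, adjusted p 0.0449), on deviations from the diet means (0.50, adjusted p 0.0262) and in 4 of the 32 fits that left out 1 library. By rho it did not pass (adjusted permutation p 0.0775), and r was 0.35 without the 2 libraries farthest from the ATF4 median. With 1 library left out r ran from 0.38 to 0.52, with adjusted permutation p-values of up to 0.248. The other 18 pairs had r between -0.24 and 0.15 over the 32 libraries and none passed. Within diets of 8 libraries their r spread more widely, from -0.95 to 0.82. PSAT1 with CTH had -0.95 in control livers and 0.54, 0.11 and -0.13 at 1.8, 9 and 18 g/kg. ATF4 with DDIT4 had -0.42 in control livers and -0.07, -0.15 and 0.82 at those doses. These within-diet values were not tested. PHGDH and PSAT1, the consecutive enzymes of serine synthesis, had r = 0.06 (adjusted permutation p 0.855).

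Each member was then set against the 138 tested genes of the pathway lists, giving 966 relations, of which 97 passed the permutation test at an adjusted p below 0.05 (10.0%). By Spearman's rho 87 of those 97 passed as well. The share was 24.6% for ATF4, 13.0% for ASNS, 9.42% for PSAT1 and for PHGDH, 5.80% for CTH and for VLDLR, and 2.17% for DDIT4. Over all tested genes, r exceeded 0.5 for 3.84% with ATF4, 1.56% with ASNS, 0.944% with PSAT1 and 0.459% with PHGDH. It did so for 0.908% with CTH, 12.8% with VLDLR and 0.829% with DDIT4. Shares with r under -0.5 were 1.01, 0.732, 0.732, 6.17, 1.36, 0.238 and 0.141% in the same order of genes. The permutation test was not run over all tested genes. The 966 relations are measured over the same 32 libraries, and list genes are not independent of each other.

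ATF4 followed the aminoacyl-tRNA synthetases. Of the 19, 13 passed with ATF4 and all 13 were positive, and r exceeded 0.5 for 11 of 19, against 3.84% of all tested genes. The median r was 0.53, against 0.10 over all tested genes, and on rescaled TPM it was 0.56 against 0.02. The tyrosine enzyme YARS had r = 0.79, HARS1 0.74 and GARS 0.72 (adjusted permutation p 0.000568, 0.000568 and 0.000966), and all 3 were at least 0.67 without the 2 libraries farthest in ATF4. The 3 tested genes closest to ATF4 over the whole table were MTHFD2, the mitochondrial folate enzyme (0.80), YARS and SLC7A3, a cationic amino acid transporter that carries arginine (0.78). Of the 26 tested ATF4 targets and amino acid response genes beyond the 7, 4 passed with ATF4 as positive and 2 as negative. With ATF4 r exceeded 0.5 for 4 of the 26, against 3.84% of all tested genes (4 and 2.82% on rescaled TPM). It was under -0.5 for 2 of the 26, against 1.01% of all tested genes. The median r of the 26 was 0.22, against 0.10 over all tested genes. None of the 18 unfolded protein response genes passed with ATF4. The arginine transporter SLC7A1 had r = 0.61, EIF2S2, an eIF2 subunit, 0.70, and the C/EBP partners CEBPB and CEBPG 0.58 and 0.53. Of the 16 genes of eIF2alpha kinases and their brakes, 5 passed with ATF4 as positive and 1 as negative. These counts were 2 and 1 for the 19 serine, glycine and transsulfuration enzymes, and 2 and 1 for the 20 mTORC1 and arginine sensing genes. In these 3 lists r exceeded 0.5 for 4, 2 and 2 genes and was under -0.5 for 1, 1 and 1. Not all negative relations are named here. Among them were SESN1, a sestrin that restrains mTORC1 (-0.76), TAT (-0.65), CCNG2 (-0.64), PDK4, the fasting kinase of pyruvate dehydrogenase (-0.63), and G6PC (-0.52). On rescaled TPM SESN1 was -0.59, TAT -0.42 and G6PC -0.50.

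ASNS also followed the synthetases. Of the 19 synthetases 9 passed with ASNS, all positive, with r above 0.5 for 9 of 19, against 1.56% of all tested genes. Of the 26 tested ATF4 targets and amino acid response genes beyond the 7 members, 7 passed with ASNS, all positive. The closest tested gene was ALDH18A1, the first enzyme of proline synthesis from glutamate, with r = 0.94 (adjusted permutation p 0.000568), and r was 0.94 in control livers and 0.95, 0.97 and 0.96 at 1.8, 9 and 18 g/kg. WDR66 (0.92) and IL22RA2, the decoy receptor of interleukin-22 (0.88), came next. PYCR1, the last enzyme of the same proline pathway, had r = 0.83, and MTHFD1L, a mitochondrial folate enzyme, 0.79. The glycine transporter SLC6A9 had 0.77, SLC7A1 0.76 and SESN2, an amino acid sensor of the sestrin family, 0.71. MTHFD2, the gene closest to ATF4, had 0.66 with ASNS. All these ASNS values were within 0.01 of their value on rescaled TPM. The ALDH18A1 and PYCR1 values with ATF4 did not pass.

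**Figure D4:**
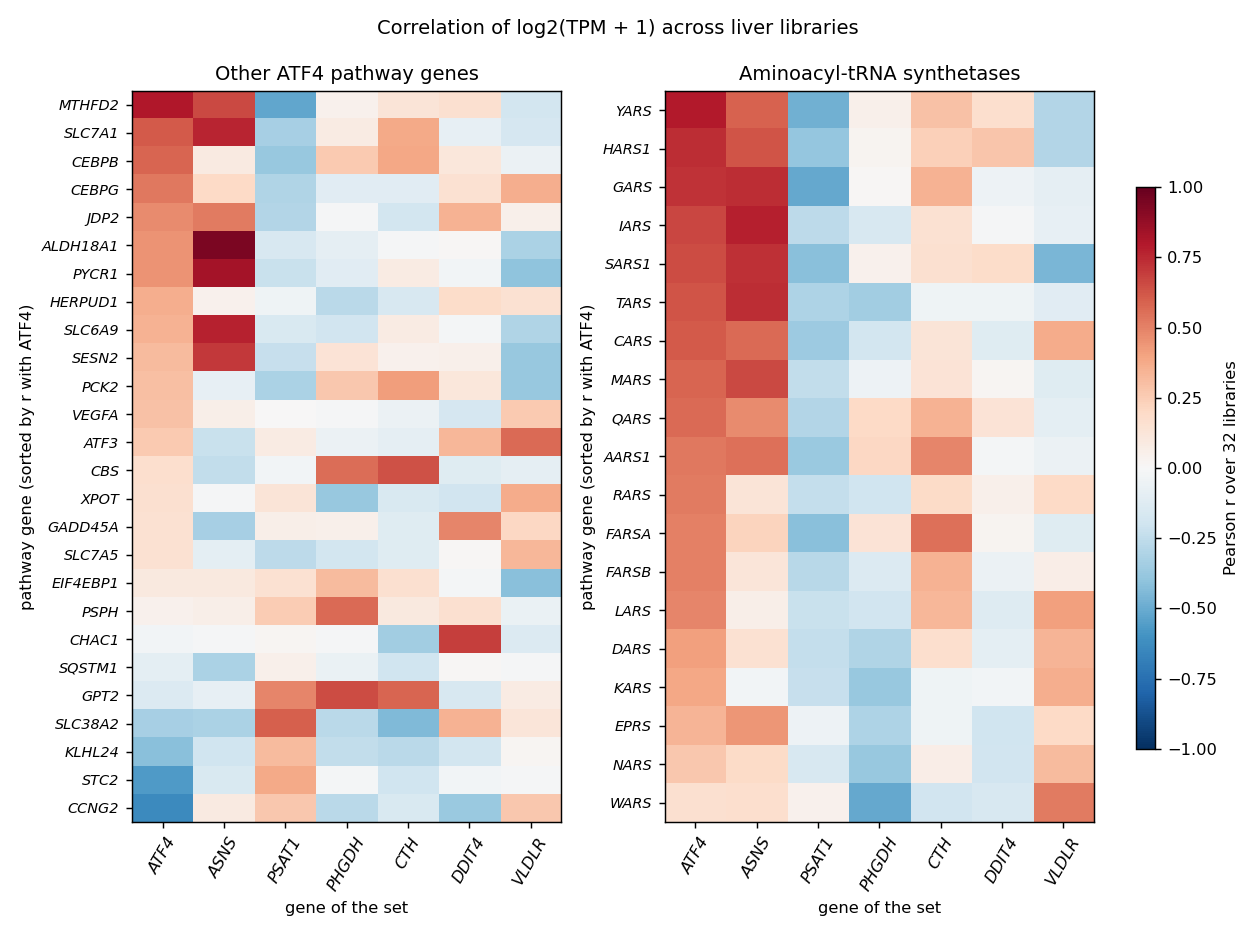
Pearson's r of log2(TPM + 1) over the 32 libraries between the 7 genes and the tested ATF4 pathway genes (left) and the aminoacyl-tRNA synthetases (right), with rows ordered by r with ATF4. The ATF4 and ASNS columns hold the high values, up to 0.80 and 0.94, and PSAT1 is negative with most synthetases (median -0.28).

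PSAT1 had few positive relations with those genes. Of the 19 synthetases only GARS passed with PSAT1, and it was negative (-0.51), and MTHFD2 was negative too (-0.52). On rescaled TPM these values were -0.38 and -0.45. The tested genes closest to PSAT1 were SLC38A4, an amino acid transporter of hepatocytes, LRRC58 and MAT1A, each with r = 0.77. SESN1 followed (0.73), then FKBP5 and KLF9, both induced by glucocorticoids (0.65 and 0.63), SLC38A2, an amino acid transporter induced by starvation (0.60), FOXO3 (0.59), and TAT and SHMT1 (0.58 each). Of the 14 glucocorticoid and fasting genes, 5 passed with PSAT1, all positive, and 4 with ATF4, all negative. With PSAT1 r exceeded 0.5 for 5 of the 14, also on rescaled TPM, against 0.944% of all tested genes as deposited. With ATF4 r was under -0.5 for 3 of the 14, against 1.01% of all tested genes, and for 1 on rescaled TPM. The counts for PSAT1 and ATF4 are not separate, since these members had r = -0.61 with each other. Without the 2 libraries farthest in PSAT1 its named positive values lay between 0.45 and 0.70.

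PHGDH and CTH had several relations in common. Both passed with CBS, which makes cystathionine (0.56 with PHGDH and 0.64 with CTH), GPT2 (0.65 and 0.58), GLDC, the glycine decarboxylase (0.55 and 0.56), and the folate enzyme MTHFD1 (0.55 and 0.57). PHGDH passed with PSPH, the final enzyme of serine synthesis (0.57), and CTH with AMT, a subunit of the glycine cleavage system (0.71). Without the 2 libraries farthest in PHGDH or CTH these values lay between 0.45 and 0.65. The tested genes closest to PHGDH were GCAT, which makes glycine from threonine (0.79), OAT, ornithine aminotransferase (0.77), and ECHS1 (0.76). Those closest to CTH were UROC1, the histidine-breakdown enzyme urocanase (0.81), CYP2D6 (0.73) and IVD, a leucine-breakdown enzyme (0.72). UROC1 reached 0.05 within the 9 g/kg livers, where CTH varied least. Of the PHGDH relations that passed, 7 were negative, and on rescaled TPM these lay between -0.12 and -0.48.

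DDIT4 had few relations. The tested genes closest to it were CEBPD, a C/EBP factor of acute stress (0.71), CHAC1, the glutathione-degrading enzyme of the ATF4 pathway (0.69, adjusted permutation p 0.000966), and GADD45B (0.69). SGK1 and GADD45A passed with r of 0.52 and 0.49, but were 0.38 and 0.35 without the 2 libraries farthest in DDIT4, and neither passed by rho. DDIT4 and ATF4 had r = 0.07, and none of the 19 synthetases passed with DDIT4.

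VLDLR was closest to CD83, a surface protein of activated immune cells (0.84), SIPA1L2 and REL, an NF-kappaB subunit (0.80 each), and among listed genes to SESN3 (0.72) and MTOR (0.60). Its relations depended on the scaling, as did those of PHGDH, which had r above 0.5 with 0.459% of all tested genes as deposited and with 4.58% on rescaled TPM. For CTH these shares were 0.908% as deposited and 4.74% on rescaled TPM. VLDLR had r above 0.5 with 12.8% of all tested genes as deposited and with 2.50% on rescaled TPM, where CD83 was 0.79, SESN3 0.64 and MTOR 0.41. The summed level of 12 macrophage and Kupffer cell markers was the only one of 12 marker sums that passed with any member (1 of 84 relations, 1.19%). Its r with VLDLR was 0.58 (rho = 0.59, permutation p adjusted over the 84 relations 0.0496 and 0.0445), and 0.47 on rescaled TPM. Within diets r was 0.74 in control livers and 0.76, 0.65 and 0.26 at 1.8, 9 and 18 g/kg. The summed level of those markers ran from 354 to 2550 TPM in control livers, and from 448 to 3990, 423 to 2120 and 410 to 2230 TPM at 1.8, 9 and 18 g/kg. As given above, the single markers were all higher than control at each dose as deposited, and none of the 12 was at 0 in all libraries. VLDLR also had r of 0.48 with the cholangiocyte sum, 0.47 with the stellate cell and fibroblast sum and 0.42 with the B and plasma cell sum. These did not pass (adjusted permutation p 0.19, 0.19 and 0.261) and were 0.20, 0.31 and 0.27 on rescaled TPM. With the erythrocyte sum r was -0.34, which did not pass either. The part of macrophages or of these other cell types in the VLDLR level was not tested. On rescaled TPM other members had marker relations near the 0.47 of VLDLR with the macrophage and Kupffer cell sum. PSAT1 and PHGDH had r of 0.47 and 0.45 with the hepatocyte sum, against 0.35 and -0.02 as deposited. CTH had -0.44 with the stellate cell and fibroblast sum, against -0.43 as deposited. These rescaled values were not tested.

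The mean of the 7 members, each scaled to its own spread, was closest to MUT, methylmalonyl-CoA mutase (r = 0.61), BAIAP2L2 (0.60), UROC1 (0.59), PAICS, an enzyme of purine synthesis (0.58), and AASS, which starts lysine breakdown (0.57). These are lower than the values of the genes closest to any single member, which were 0.69 to 0.94.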

How the data were processed

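Liver messenger RNA was sequenced in 32 libraries, with strand-specific poly(A) libraries on a NovaSeq X Plus per the labels' protocols. The submitters' processing notes list RSEM, StringTie, HISAT2 and fastp without versions or roles, and the genome build is not given in the sources used here. The authors deposited TPM per gene symbol, summing to 998707 to 999281 per library. Read depth is unknown, which leaves the spread between libraries as the measure of precision.

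After transformation to log2(TPM + 1), the 11339 genes averaging 1 TPM or more were fitted with limma 3.58.1 in R 4.3.3 (1 mean per diet, all 32 libraries, trended variances). P-values are 2-sided and Benjamini-Hochberg adjusted over all tested genes, with calls below 0.05. Single members were also tested by exact permutation over 12870 regroupings, and correlations by 100000 permutations (smallest p 1e-05) with scipy 1.17.1. The procedures were tested on simulated data in which genes varied independently, so correlation between genes was not covered.

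The members and lists were chosen with earlier results of these data known. Genes named are the members, the 3 tested genes with the highest r to each, the 5 closest to the mean of the members, and up to 4 per list with the smallest unadjusted p over the doses. List genes named for their correlation were chosen after their values were seen. Of 36 listed ATF4 pathway genes 28 matched a row and 26 were tested. Unmatched genes were not analysed here, and a search of promoter sequences was not run. Replicate numbers did not pair the libraries. Alternatives were another pseudocount, other filters, median-ratio rescaling, trend-free variances, the W-linked gene HINTW as covariate, a replicate block, 2 diets alone, and leaving out each library.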

Additional observations from a re-analysis of the deposited data

Results flagged for a closer look

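In 2 of the 28 sets of 8 libraries (7 genes in 4 diets), 1 library lay further from its neighbour than Dixon's 95% critical share of the set's range on log2(TPM + 1). Chance gives such a library in about 1 of 20 sets. ATF4 was 1026.1 TPM in the fifth replicate at 1.8 g/kg, where the gap to the next library took 0.54 of the range. PHGDH was 949.91 TPM in the seventh replicate at 1.8 g/kg, with a gap of 0.57 of the range.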

How the results depend on the processing

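No gene was called at any dose, in the test of any difference or in the trend under any alternative run. No member passed either, with adjusted limma p-values of at least 0.738 over the alternatives and at least 0.618 with any 1 library left out. VLDLR has no value under the filter of a mean of at least 5 TPM. With a replicate block 0 genes were called, and 320, 661 and 338 genes had an unadjusted p below 0.05 at 1.8, 9 and 18 g/kg, against 265, 552 and 277 without it. Same-numbered libraries had correlations of deviations of -0.31 to 0.37, so the numbers were not taken as pairs. The unadjusted counts were 627, 1054 and 704 with no filter and 163, 346 and 144 above 5 TPM, where more and fewer genes are tested. For any difference and the trend they were 729 and 654 with no filter and 215 and 114 above 5 TPM, against 361 and 230. Leaving out control replicate 7 gave 910 genes at 9 g/kg, control replicate 3 gave 440 at 18 g/kg, and replicate 4 of 1.8 g/kg gave 346 for the trend.

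The member differences that changed sign were all small and uncalled, and the cause was not tested. VLDLR at 18 g/kg was -0.007 on rescaled TPM and -0.026 with HINTW as covariate. With 1 library left out the log2 differences ranged from -0.368 to 0.061 for ASNS at 1.8 g/kg, -0.039 to 0.31 for DDIT4, -0.216 to 0.143 for PSAT1 and -0.182 to 0.032 for VLDLR at 9 g/kg, and, at 18 g/kg, -0.094 to 0.163 for CTH, -0.216 to 0.073 for DDIT4, -0.119 to 0.136 for PHGDH and -0.105 to 0.072 for VLDLR.

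Both called member pairs, PHGDH with CTH and ATF4 with PSAT1, passed with each of the 32 libraries left out, a check chosen after seeing the data. Uncalled pairs changed sign as follows. On rescaled TPM r was 0.145 for ATF4 with PHGDH, 0.019 for ASNS with PHGDH and 0.058 for PSAT1 with CTH. After removing HINTW the first pair had 0.039 and the second 0.043. On deviations from diet means PSAT1 with PHGDH had -0.015 and DDIT4 with VLDLR 0.048. Spearman's rank correlation was -0.066 for PSAT1 with DDIT4, -0.013 for PSAT1 with VLDLR and 0.079 for DDIT4 with VLDLR. Without the 2 farthest libraries r was -0.019 for ASNS with CTH, -0.133 for PSAT1 with PHGDH, -0.063 for PSAT1 with DDIT4, -0.056 for PSAT1 with VLDLR and 0.05 for DDIT4 with VLDLR. With 1 library left out r ranged from -0.124 to 0.127 for ATF4 with PHGDH, -0.017 to 0.157 for ATF4 with DDIT4, -0.002 to 0.135 for ASNS with CTH, -0.086 to 0.152 for PSAT1 with PHGDH, -0.221 to 0.001 for PSAT1 with CTH, -0.037 to 0.112 for PSAT1 with DDIT4, -0.004 to 0.151 for PSAT1 with VLDLR and -0.067 to 0.067 for DDIT4 with VLDLR.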
